A study of Homo sapiens with 12 samples.

Results

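The genes described here make, use and recover the methyl donor S-adenosylmethionine: MAT2A, MAT2B, AHCY, CBS and MTR. They were chosen by symbol, with values of these libraries already known, so their own levels and fold changes are given as a description without a test. Of the 5 genes named, 4 were measured among 10940 genes in all, and the 4 also passed the filter on low counts that left 10459 genes for testing. CBS, which encodes the enzyme that commits homocysteine to cysteine synthesis, was not analysed here.

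HepG2 is an established human cell line from a liver tumour, and its messenger RNA was sequenced at the 3′ ends of transcripts in 12 libraries. The cells were labelled wild type and received 1 of 4 media. Plasmax-TE+Fe was Plasmax, a medium modelled on the nutrients of human plasma, prepared without its trace elements but with iron added. Plasmax-TE lacked the trace elements, Plasmax held them, and EMEM was the minimal medium in which the line was kept. The cells were moved to their medium 24 h after seeding, with 10% heat-inactivated serum in each; the medium was renewed at 48 h and RNA was taken at 96 h, from 3 libraries per medium. The serum was present in the media without trace elements too.

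Methionine adenosyltransferase joins methionine to ATP and yields S-adenosylmethionine, from which methyltransferases take the methyl group for DNA, RNA, proteins and small molecules. The S-adenosylhomocysteine left behind is split into adenosine and homocysteine, and homocysteine is either methylated back to methionine with help from folate and cobalamin or passed on to cysteine. Adult hepatocytes mainly use the catalytic subunit encoded by MAT1A, whereas dividing cells and many liver tumours use MAT2A. The abundance of MAT2A messenger RNA is known to depend on S-adenosylmethionine itself, through hairpins in its 3′ untranslated region that the RNA methyltransferase METTL16 recognises.

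The motif that METTL16 reads in these hairpins, TACAGAGAA or TACAGAAAA, was looked up on the sense strand of annotated 3′ untranslated regions, because it is the sequence feature that sets MAT2A apart from the other genes of the group. In the reference annotation (GENCODE v29, GRCh38), the 3′ untranslated region of MAT2A transcript ENST00000306434.7 is 1508 bases long and lies on the plus strand of chromosome 2. It held 6 matches, all exonic, each shown from 5′ to 3′ with 10 bases on either side and the motif in capitals.
MAT2A site 1, chr2:85543802-85543830: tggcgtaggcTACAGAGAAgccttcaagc
MAT2A site 2, chr2:85544589-85544617: tgtgatgtcaTACAGAGAAgtcacagggc
MAT2A site 3, chr2:85544774-85544802: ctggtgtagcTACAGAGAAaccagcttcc
MAT2A site 4, chr2:85544889-85544917: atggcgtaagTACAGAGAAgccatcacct
MAT2A site 5, chr2:85545004-85545032: caaggtgtccTACAGAAAAaccttgggtt
MAT2A site 6, chr2:85545112-85545140: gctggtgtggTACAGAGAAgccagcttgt

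Site 5 carries TACAGAAAA and the other sites TACAGAGAA. The longest annotated 3′ untranslated region of each of 19113 genes was searched the same way. At least 1 match occurred in 838 of them (4.38%) and at least 2 in 47 (0.246%), while MAT2A was the 1 gene with 3 or more. As the motif searched is that of the MAT2A hairpins themselves, the MAT2A count follows from the search and is not separate evidence. The regions of MAT2B (2556 bases), AHCY (766 bases) and MTR (6337 bases) held 0 matches, as did that of MAT1A (1961 bases). A match is a match of letters, and binding was not measured in these cells.

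Total counts ran from 1562125 to 2384090 per library, so 1 count was worth 0.419 to 0.640 CPM (each gene's share of its library's counts, on a scale common to all libraries). All 8 hepatocyte markers listed were present in every library, with ALB at 3846 to 19590 CPM and HNF4A at 108 to 183 CPM. Of 5 markers of other cell types, COL1A1 was measured, at 0.541 to 8.36 CPM. On principal component 2, with 18.2% of the variance, replicate 1 of Plasmax-TE (-36.8) and replicate 2 of Plasmax-TE+Fe (-33.5) stood apart from the other libraries (-7.47 to 19.7), and they carry the consecutive library numbers 87 and 88. The levels of the 4 genes in the media of these 2 libraries, and the calls that changed, are therefore also given without them. The labels do not state whether libraries of a medium were separate cultures, and p-values therefore reflect a spread between libraries that may be technical. Levels are CPM per library and mean ± SD over 3 libraries, and in bulk RNA a lower level in each cell cannot be told apart from fewer cells that express the gene. Because 3′ counts are not scaled by length or capture, levels are compared between media and not between genes.

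MAT2A (ENSG00000168906), the catalytic subunit of the S-adenosylmethionine synthetase of dividing cells, varied most among the 4 genes. Its levels were 131.6, 325.0 and 88.9 CPM in Plasmax-TE+Fe, 227, 201 and 217 CPM in Plasmax-TE, 54.4, 44.4 and 51.6 CPM in Plasmax, and 41.7, 22.7 and 34.6 CPM in EMEM. Every library of a medium without trace elements, with or without iron, stood above every Plasmax and EMEM library. The Plasmax-TE+Fe libraries were spread on both sides of the Plasmax-TE libraries, with replicate 2 highest of the 12. By mean, the order from high to low was Plasmax-TE (215 ± 13.4), Plasmax-TE+Fe (182 ± 126), Plasmax (50.1 ± 5.17) and EMEM (33.0 ± 9.65 CPM). The first neighbours in this order overlapped, while all Plasmax libraries were above all EMEM libraries by a narrow gap.

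In the fit over all genes, MAT2A was 4.29-fold higher in Plasmax-TE than in Plasmax (log2 fold change 2.10 ± 0.32, SE). The SD of log2 CPM within a medium, pooled over the 4 media, was 0.53, and the Plasmax-TE+Fe libraries were the most spread. Without Plasmax-TE+Fe replicate 2 the SE was 0.19. Leaving out any single library gave a log2 fold change of 1.98 to 2.16. Within the 3 runs of consecutive library numbers the log2 ratio was 2.06, 2.18 and 2.07. In Plasmax-TE+Fe it was 3.56-fold higher than in Plasmax (1.83 ± 0.32), with 2.58, 1.00 and 1.35 within runs. Against EMEM the values were 2.67 ± 0.33 in Plasmax-TE, 2.40 ± 0.33 in Plasmax-TE+Fe and 0.57 ± 0.34 in Plasmax. Comparisons with Plasmax share the Plasmax libraries, and those with EMEM share the EMEM libraries.

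Plasmax-TE+Fe against Plasmax-TE shows the addition of iron alone, and the MAT2A value of this pair depended on 1 library. The log2 fold change of Plasmax-TE+Fe against Plasmax-TE was -0.27 ± 0.29 over all libraries. Within runs the log2 ratio was 0.52 in the run that holds both libraries that stood apart, and -1.17 and -0.72 in the other runs. Without Plasmax-TE+Fe replicate 2 the value was -0.93 ± 0.20, and without both libraries it was -0.92 ± 0.21. The mean level was then 110.2 ± 30.2 CPM in Plasmax-TE+Fe against 209 ± 11.4 CPM in Plasmax-TE (n = 2 each). Without replicate 3 of Plasmax-TE+Fe the value was 0.052. Leaving out replicate 2 also lowered the log2 fold change of Plasmax-TE+Fe to 1.17 ± 0.21 against Plasmax and to 1.75 ± 0.22 against EMEM.

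**Figure D1:**
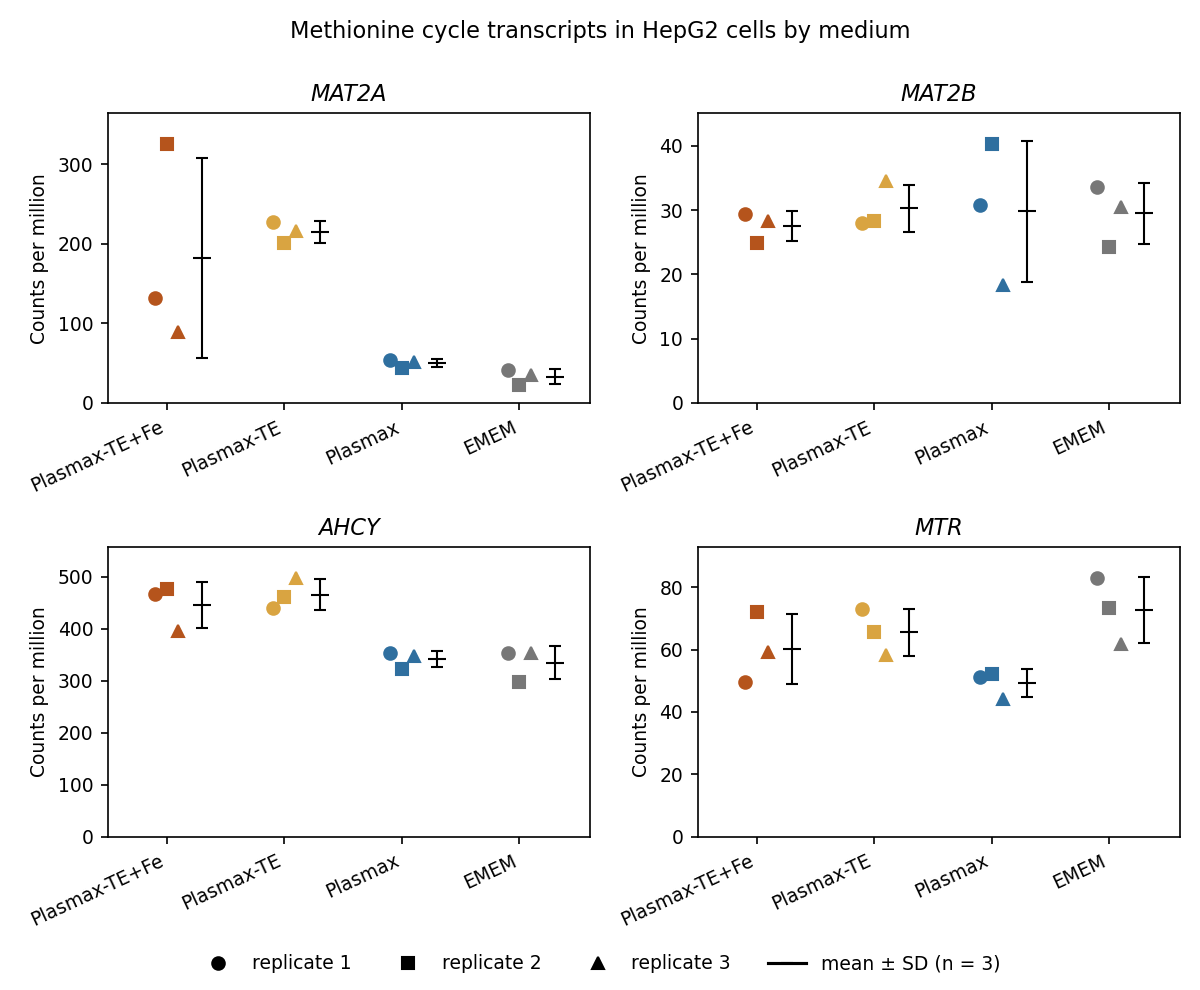
Levels in CPM (vertical axes) of MAT2A, MAT2B, AHCY and MTR in the 12 libraries, by medium; each point is 1 library and the bars give the mean ± SD of 3. The MAT2A libraries of both media without trace elements (88.9 to 325.0 CPM) lie above all Plasmax and EMEM libraries (22.7 to 54.4 CPM), while MAT2B overlaps among all media.

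MAT2B (ENSG00000038274), the regulatory subunit that binds the product of MAT2A, overlapped between media in all 6 comparisons. It was at 29.4, 24.9 and 28.3 CPM in Plasmax-TE+Fe, 28.0, 28.3 and 34.5 CPM in Plasmax-TE, 30.7, 40.2 and 18.4 CPM in Plasmax, and 33.6, 24.3 and 30.5 CPM in EMEM. The 4 means lay between 27.5 and 30.3 CPM, and the Plasmax libraries held both the lowest and the highest of the 12 levels. Without the 2 libraries that stood apart, it averaged 28.9 ± 0.787 CPM in Plasmax-TE+Fe and 31.4 ± 4.43 CPM in Plasmax-TE (n = 2 each). Log2 fold changes ran from -0.14 to 0.052, each with an SE of 0.24. The number of MAT2A counts for each MAT2B count was 3.14 to 13.1 in Plasmax-TE+Fe, 6.27 to 8.12 in Plasmax-TE, 1.10 to 2.80 in Plasmax and 0.931 to 1.24 in EMEM.

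AHCY (ENSG00000101444) encodes adenosylhomocysteinase, which removes S-adenosylhomocysteine, the product that inhibits methyltransferases. Its levels were 466, 476 and 395 CPM in Plasmax-TE+Fe, 439, 460 and 497 CPM in Plasmax-TE, 354, 323 and 347 CPM in Plasmax, and 353, 297 and 354 CPM in EMEM. The libraries thus formed a higher group of both media without trace elements and a lower group of Plasmax and EMEM, with no overlap between the groups and overlap within each. By mean the order was Plasmax-TE (465 ± 29.5), Plasmax-TE+Fe (445 ± 44.1), Plasmax (342 ± 16.1) and EMEM (335 ± 32.5 CPM). The log2 fold change was 0.45 ± 0.14 for Plasmax-TE against Plasmax and 0.38 ± 0.14 for Plasmax-TE+Fe against Plasmax. It was 0.43 ± 0.14 for Plasmax-TE and 0.36 ± 0.14 for Plasmax-TE+Fe against EMEM. For Plasmax-TE+Fe against Plasmax-TE it was -0.073 ± 0.14, and for Plasmax against EMEM -0.022 ± 0.14. Within runs, the log2 ratio of Plasmax-TE to Plasmax was 0.31, 0.51 and 0.52. Without the 2 libraries that stood apart, AHCY averaged 430.3 ± 50.1 CPM in Plasmax-TE+Fe and 479 ± 26.3 CPM in Plasmax-TE (n = 2 each).

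MTR (ENSG00000116984) encodes methionine synthase, the cobalamin-dependent enzyme that methylates homocysteine back to methionine. It was at 49.6, 71.9 and 59.1 CPM in Plasmax-TE+Fe, 73.0, 65.5 and 58.1 CPM in Plasmax-TE, 51.2, 52.2 and 44.0 CPM in Plasmax, and 82.9, 73.4 and 61.9 CPM in EMEM. Here the order by mean was EMEM (72.7 ± 10.5), Plasmax-TE (65.5 ± 7.48), Plasmax-TE+Fe (60.2 ± 11.2) and Plasmax (49.1 ± 4.49 CPM), and each medium overlapped its neighbour in that order. All Plasmax libraries were below all EMEM libraries, with a log2 fold change of -0.62 ± 0.17. All Plasmax-TE libraries were above all Plasmax libraries, with 0.42 ± 0.17. The libraries overlapped in the other comparisons, in which the log2 fold change was -0.13 ± 0.16 for Plasmax-TE+Fe against Plasmax-TE and 0.29 ± 0.17 for Plasmax-TE+Fe against Plasmax. It was -0.19 ± 0.16 for Plasmax-TE and -0.33 ± 0.16 for Plasmax-TE+Fe against EMEM. Without the 2 libraries that stood apart, MTR averaged 54.4 ± 6.72 CPM in Plasmax-TE+Fe and 61.8 ± 5.25 CPM in Plasmax-TE (n = 2 each). MTR thus placed EMEM at the top, where MAT2A placed it at the bottom.

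**Figure D2:**
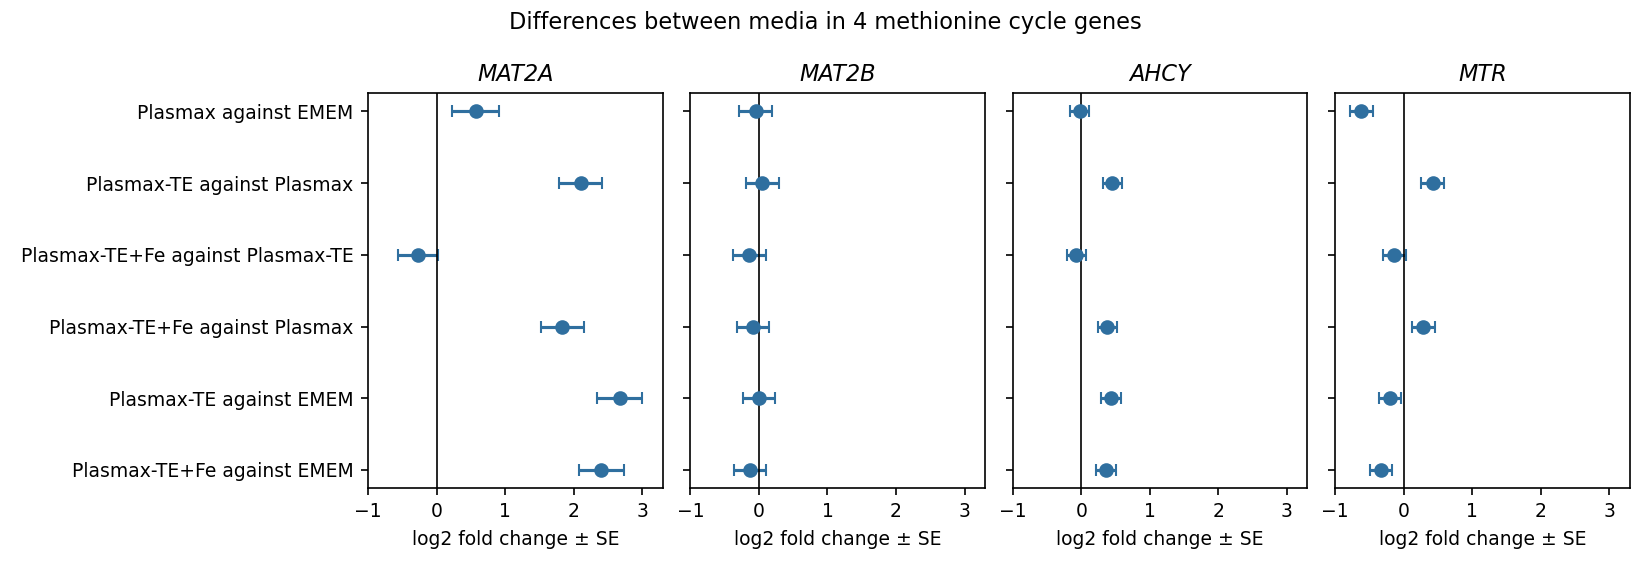
Log2 fold change (horizontal axis) of the 4 genes in the 6 comparisons of media, each point an estimate of the fit over all genes and each bar ± 1 SE. The MAT2A estimates of both media without trace elements against Plasmax and EMEM (1.83 to 2.67) lie apart from those of the other genes, which stay between -0.62 and 0.45.

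Calls by edgeR (adjusted p under 0.05 over all genes) were counted for context, and since the genes were chosen with these contrasts known, the counts carry no weight as evidence. In Plasmax-TE against Plasmax, 2 of the 4 genes (MAT2A and AHCY, both higher) were among the calls, beside 11.2% of all genes tested in either direction and 5.61% called higher. AHCY was among them in 4 of the 12 fits that left out 1 library each. Its call was lost without Plasmax-TE+Fe replicate 1 or 3, Plasmax-TE replicate 2 or 3, Plasmax replicate 1 or 2, or EMEM replicate 1 or 3, with a log2 fold change of 0.37 to 0.47 in these fits. With the run of library numbers as a block, MTR was called there too (0.42 ± 0.14). Libraries did not overlap for 3 of the 4 genes, all higher, beside 30.4% of all genes in either direction and 15.0% higher. In Plasmax against EMEM, 1 gene was called (MTR, lower), beside 21.4% of all genes in either direction and 11.5% called lower, and its call was lost without EMEM replicate 1, where the log2 fold change was -0.52. Without both libraries that stood apart, MAT2A was called there too, higher (0.58 ± 0.21). Libraries did not overlap for 2 of the 4, beside 39.8%.

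In Plasmax-TE+Fe against Plasmax-TE, edgeR called 0 of the 4 genes, beside 0.258% of all genes, with 0 of the 4 at an unadjusted p under 0.05 and 0 called by DESeq2. All 4 genes overlapped between these media, and 13.4% of all genes did not. MAT2A was called lower without Plasmax-TE+Fe replicate 2 and without both libraries that stood apart. In Plasmax-TE+Fe against Plasmax 1 gene was called (MAT2A, higher), beside 1.20% of all genes in either direction and 0.507% called higher. For 2 genes, MAT2A and AHCY, the libraries did not overlap and were higher, beside 18.4% in either direction and 8.67% higher. The MAT2A call was lost there without Plasmax replicate 2, with a log2 fold change of 1.72. Against EMEM, 1 gene was called (MAT2A) in each of the trace-element-free media, beside 9.65% of all genes for Plasmax-TE+Fe (3.67% called higher) and 4.81% for Plasmax-TE (1.62% called higher). AHCY was called higher as well with the run of library numbers as a block, at 0.36 ± 0.11 in Plasmax-TE+Fe and 0.44 ± 0.11 in Plasmax-TE. It was also called with library size alone in both media, and in Plasmax-TE with DESeq2 and without both libraries that stood apart (0.51 ± 0.13). The libraries of 2 genes, again MAT2A and AHCY, did not overlap, beside 28.8% for Plasmax-TE+Fe (16.1% higher) and 25.3% for Plasmax-TE (14.6% higher). Over the 4 media together, 2 of the 4 genes (MAT2A and AHCY) were called, beside 18.0% of all genes.

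MAT1A, the catalytic subunit of adult hepatocytes, was measured in the same libraries. It is in a list of related genes that was also chosen with earlier results of these data known. It averaged 60.9 ± 7.00 CPM in Plasmax-TE+Fe, 89.5 ± 16.9 CPM in Plasmax-TE, 55.1 ± 1.68 CPM in Plasmax and 88.3 ± 6.98 CPM in EMEM. MAT1A fell in Plasmax against EMEM (log2 fold change -0.73 ± 0.16, edgeR adjusted p = 0.0029) and rose in Plasmax-TE against Plasmax (0.70 ± 0.16, adjusted p = 0.0086). The second call was lost without Plasmax replicate 2, where the value was 0.65. In Plasmax-TE+Fe against Plasmax-TE all libraries were lower, at -0.56 ± 0.16 (edgeR adjusted p = 0.17). With the run of library numbers as a block, this difference was called (-0.55 ± 0.14, edgeR adjusted p = 0.046).

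The ratio of MAT2A to MAT1A counts was 2.24, 4.73 and 1.61 in Plasmax-TE+Fe, 2.15, 2.79 and 2.38 in Plasmax-TE, 0.955, 0.817 and 0.958 in Plasmax, and 0.438, 0.278 and 0.392 in EMEM. It separated Plasmax from EMEM and both from the media without trace elements, and overlapped between Plasmax-TE+Fe and Plasmax-TE. The means were 2.86 ± 1.65, 2.44 ± 0.326, 0.910 ± 0.0805 and 0.369 ± 0.0821 in the same order of media. As the ratio depends on how well each 3′ end was captured, its value near 1 in Plasmax does not mean equal amounts of the transcripts.

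**Figure D3:**
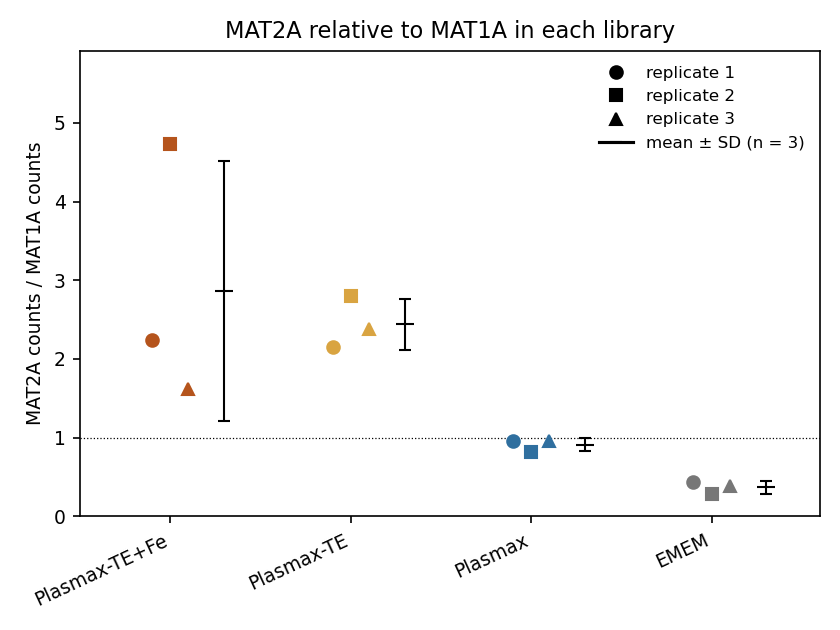
Ratio of MAT2A to MAT1A counts in each library (vertical axis, linear from 0), by medium, with the mean ± SD of 3 libraries and a dotted line at a ratio of 1. All libraries of both media without trace elements lie between 1.61 and 4.73, the Plasmax libraries between 0.817 and 0.958 and the EMEM libraries between 0.278 and 0.438.

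METTL16, which reads the MAT2A hairpins, was at 31.9, 73.0 and 31.8 CPM in Plasmax-TE+Fe, 61.1, 40.4 and 34.0 CPM in Plasmax-TE, 25.6, 40.2 and 29.6 CPM in Plasmax, and 24.3, 37.3 and 49.1 CPM in EMEM. Its highest levels were in Plasmax-TE+Fe replicate 2 and Plasmax-TE replicate 1, the libraries that stood apart, and replicate 2 was also the library with most MAT2A. METTL16 overlapped between media and its part in the MAT2A levels was not tested. It was called in 0 of the 6 comparisons (edgeR adjusted p from 0.31 to 0.998).

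A list of methionine cycle genes other than the 4 above was chosen with earlier results of these data known, so its counts are a description. Of its 8 tested members, 0 rose and 3 fell in Plasmax against EMEM (MAT1A, SARDH and CHDH). They were 37.5% of those tested, beside 21.4% of all genes called and 11.5% called lower, with a median log2 fold change of -0.39 against -0.0096 over all genes. SARDH, which demethylates sarcosine, fell by 1.85 ± 0.26 on the log2 scale (edgeR adjusted p = 3.6e-05). It averaged 6.22 ± 1.49 CPM in Plasmax and 21.6 ± 2.07 CPM in EMEM. CHDH, which oxidises choline towards betaine, fell by 0.52 ± 0.17 (edgeR adjusted p = 0.034). Its call was lost without EMEM replicate 1 (-0.32), Plasmax replicate 1 (-0.57) or replicate 2 (-0.38), or Plasmax-TE+Fe replicate 3 (-0.50).

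In Plasmax-TE against Plasmax, 2 of the same 8 genes rose and 0 fell (MAT1A and SARDH), or 25% beside 11.2% of all genes called and 5.61% called higher, with a median of 0.20 against 0.019 over all genes. SARDH averaged 19.0 ± 1.50 CPM in Plasmax-TE and 6.22 ± 1.49 CPM in Plasmax (1.62 ± 0.26, edgeR adjusted p = 6.4e-04). The MAT1A call was lost without Plasmax replicate 2, at 0.65, which left SARDH. The comparisons of Plasmax with EMEM and of Plasmax-TE with Plasmax share the Plasmax libraries, so a low level in Plasmax enters both.

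In Plasmax-TE+Fe, SARDH averaged 9.64 ± 1.19 CPM. It did not pass the test against Plasmax-TE, with -0.98 ± 0.24 (edgeR adjusted p = 0.091). With the run of library numbers as a block, this difference was called (-0.98 ± 0.25, edgeR adjusted p = 0.0496). Against EMEM 2 of the 8 genes fell (25%, beside 9.65% of all genes called), SARDH by 1.22 ± 0.24 (edgeR adjusted p = 0.0020) and MAT1A by 0.59 ± 0.16 (edgeR adjusted p = 0.022). The MAT1A call was lost without EMEM replicate 1 or 3 or Plasmax-TE+Fe replicate 1 or 3, at -0.59 to -0.51. GNMT, which uses S-adenosylmethionine to methylate glycine, did not pass the low-count filter of the fit, with 2, 1 and 0 counts in Plasmax-TE+Fe, 3, 4 and 11 in Plasmax-TE, 0 in each Plasmax library and 13, 4 and 10 in EMEM. The 0 counts in Plasmax allow up to 3 counts each, or 1.35 to 1.92 CPM. GNMT passed the filter without Plasmax-TE+Fe replicate 2 and without both libraries that stood apart. In these fits and in the fit without a filter, edgeR called it lower in Plasmax against EMEM (adjusted p from 0.0019 to 0.0032) and higher in Plasmax-TE against Plasmax (adjusted p from 0.015 to 0.021). In Plasmax-TE+Fe against EMEM edgeR called it lower without both libraries (adjusted p = 0.040) and without a filter (adjusted p = 0.030), and did not call it without replicate 2 alone (adjusted p = 0.051). The other fits without 1 library were not looked up for GNMT. Its highest levels were in EMEM replicate 1 (8.10 CPM) and Plasmax-TE replicate 3 (5.76 CPM). As GNMT passed the filter through media where it was high, its calls are a description. MTRR, which reactivates methionine synthase, and AHCYL1, a relative of AHCY, were called in 0 of the 6 comparisons of the fit reported. The same held for CTH, which follows CBS in cysteine synthesis. With the run of library numbers as a block, AHCYL1 was called in Plasmax-TE+Fe against EMEM. Its Plasmax-TE+Fe libraries (163.9 to 196.2 CPM) were all below its EMEM libraries (215.6 to 245.8 CPM), and 28.8% of all genes did not overlap there.

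Lists of related genes, 6 in all, held 99 names, of which 85 were measured and 82 tested. The lists were chosen with earlier results of these data known, so their counts are context and carry no weight as evidence. In Plasmax against EMEM 9 rose and 13 fell, together 26.8% of those tested, beside 21.4% of all genes. In Plasmax-TE against Plasmax 9 rose and 6 fell, together 18.3%, beside 11.2% of all genes. The second count was 5 without Plasmax replicate 2, 9 without Plasmax replicate 1 or 3 or Plasmax-TE replicate 2, and 10 without Plasmax-TE replicate 1.

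Downstream of homocysteine, the list of transsulfuration and glutathione genes moved in both directions. In Plasmax against EMEM 2 of 12 tested rose (SQOR and GCLM) and 2 fell (MPST and TST), together 33.3% beside 21.4% of all genes. SQOR, the mitochondrial oxidase of hydrogen sulfide, averaged 98.7 ± 25.8 CPM in Plasmax and 19.9 ± 3.69 CPM in EMEM (2.25 ± 0.24, edgeR adjusted p = 2.1e-06). MPST, a sulfurtransferase of cysteine breakdown that can yield sulfide, averaged 126 ± 26.6 CPM in Plasmax and 293 ± 34.6 CPM in EMEM (-1.28 ± 0.16, edgeR adjusted p = 9.0e-06). TST, a sulfur transferase, fell by 1.49 ± 0.29 (edgeR adjusted p = 0.0010). GCLM, a subunit of the enzyme that starts glutathione synthesis, rose (0.85 ± 0.27, edgeR adjusted p = 0.029), a call that was lost without any 1 of the EMEM libraries or Plasmax replicate 1 or 3, at 0.75 to 0.91. In Plasmax-TE against Plasmax, which shares the Plasmax libraries, the directions were opposite, with SQOR at 32.1 ± 5.73 CPM in Plasmax-TE (-1.60 ± 0.23, edgeR adjusted p = 2.2e-04), MPST at 235 ± 16.8 CPM (0.91 ± 0.16, edgeR adjusted p = 0.0011) and TST at 1.30 ± 0.29 on the log2 scale (edgeR adjusted p = 0.0072). ETHE1, a sulfur dioxygenase, also rose there (0.63 ± 0.20, edgeR adjusted p = 0.044), a call that was lost in 9 of the 12 fits without 1 library, at 0.53 to 0.69, and kept without EMEM replicate 1 or 3 or Plasmax-TE+Fe replicate 2. It was lost as well without both libraries that stood apart (0.63, edgeR adjusted p = 0.061).

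SQOR and MPST were also the 2 genes of all 6 lists called in Plasmax-TE+Fe against Plasmax (2.44%, beside 1.20% of all genes). SQOR fell to 47.5 ± 12.7 CPM in Plasmax-TE+Fe, against 98.7 ± 25.8 CPM in Plasmax (-1.03 ± 0.22, edgeR adjusted p = 0.021). MPST averaged 210 ± 24.7 CPM in Plasmax-TE+Fe and 126 ± 26.6 CPM in Plasmax (0.74 ± 0.16, edgeR adjusted p = 0.021). Both calls were lost without Plasmax replicate 2 (SQOR -0.83, MPST 0.66) and without Plasmax-TE+Fe replicate 2 (SQOR -0.81, MPST 0.69), and the MPST call also without Plasmax replicate 3 (0.65) or Plasmax-TE+Fe replicate 1 (0.71).

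Among 16 folate genes tested, which feed MTR, 1 rose and 3 fell in Plasmax against EMEM, together 25% beside 21.4% of all genes. MTHFD1L, a mitochondrial enzyme that yields formate, rose (1.09 ± 0.18, edgeR adjusted p = 1.6e-04), and ALDH1L1, which oxidises formyl-folate, fell by 2.36 ± 0.36 (edgeR adjusted p = 8.1e-05). FTCD, which passes one-carbon units from histidine to folate, fell by 0.85 (edgeR adjusted p = 0.0051), and GGH, which trims folate polyglutamates, by 0.89 (edgeR adjusted p = 0.0015). Of 19 methyltransferases and regulators of MAT2A, 4 rose and 2 fell, together 31.6% beside 21.4% of all genes. DNMT1, the maintenance DNA methyltransferase, rose (0.71, edgeR adjusted p = 0.0041), and HNMT, which methylates histamine, fell by 0.58 (edgeR adjusted p = 0.0038). DNMT3A, a DNA methyltransferase that sets new marks, rose in Plasmax-TE against Plasmax (0.91, edgeR adjusted p = 0.0058). It was also called lower in Plasmax against EMEM, a call lost without Plasmax replicate 2 (-0.70). Both comparisons share the Plasmax libraries, so a low level in Plasmax enters both.

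Of 13 tested genes of methionine salvage and polyamine synthesis, which use S-adenosylmethionine after decarboxylation, ODC1 was the 1 called in Plasmax against EMEM. This first enzyme of polyamine synthesis rose there (1.08 ± 0.21, edgeR adjusted p = 8.8e-04). The 1 call was 7.69% of the 13 genes, beside 21.4% of all genes. Of 14 tested genes of amino acid transport and cobalamin handling, 1 rose and 3 fell in the same comparison, together 28.6%. MMAB, which makes adenosylcobalamin, fell by 1.42 (edgeR adjusted p = 1.5e-04) and SLC43A1, a transporter of large neutral amino acids, by 0.84 (edgeR adjusted p = 0.0029).

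In Plasmax-TE+Fe against Plasmax-TE, edgeR called 0 of the 82 genes, with 16 at an unadjusted p under 0.05 (6 higher and 10 lower) and 0 called by DESeq2. Over all 10459 genes tested, edgeR called 27, with 974 at an unadjusted p under 0.05. Without Plasmax-TE+Fe replicate 2, edgeR called 229 genes in all and 5 of the 82. SAT1, SLC38A1 and SLC38A2 were higher and DNMT3A and TST lower. This set was chosen for naming after its values were seen. Against EMEM, 1 gene rose and 3 fell in Plasmax-TE, and 6 rose and 9 fell in Plasmax-TE+Fe. The first count is 4.88% of the 82 genes, near the 4.81% of all genes, and the second is 18.3%, beside 9.65%. The count of 4 for Plasmax-TE was 2 without EMEM replicate 1 or 2 or Plasmax-TE replicate 2 or 3. The count of 15 for Plasmax-TE+Fe was 8 without EMEM replicate 3 and 10 without Plasmax-TE+Fe replicate 1.

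**Figure D4:**
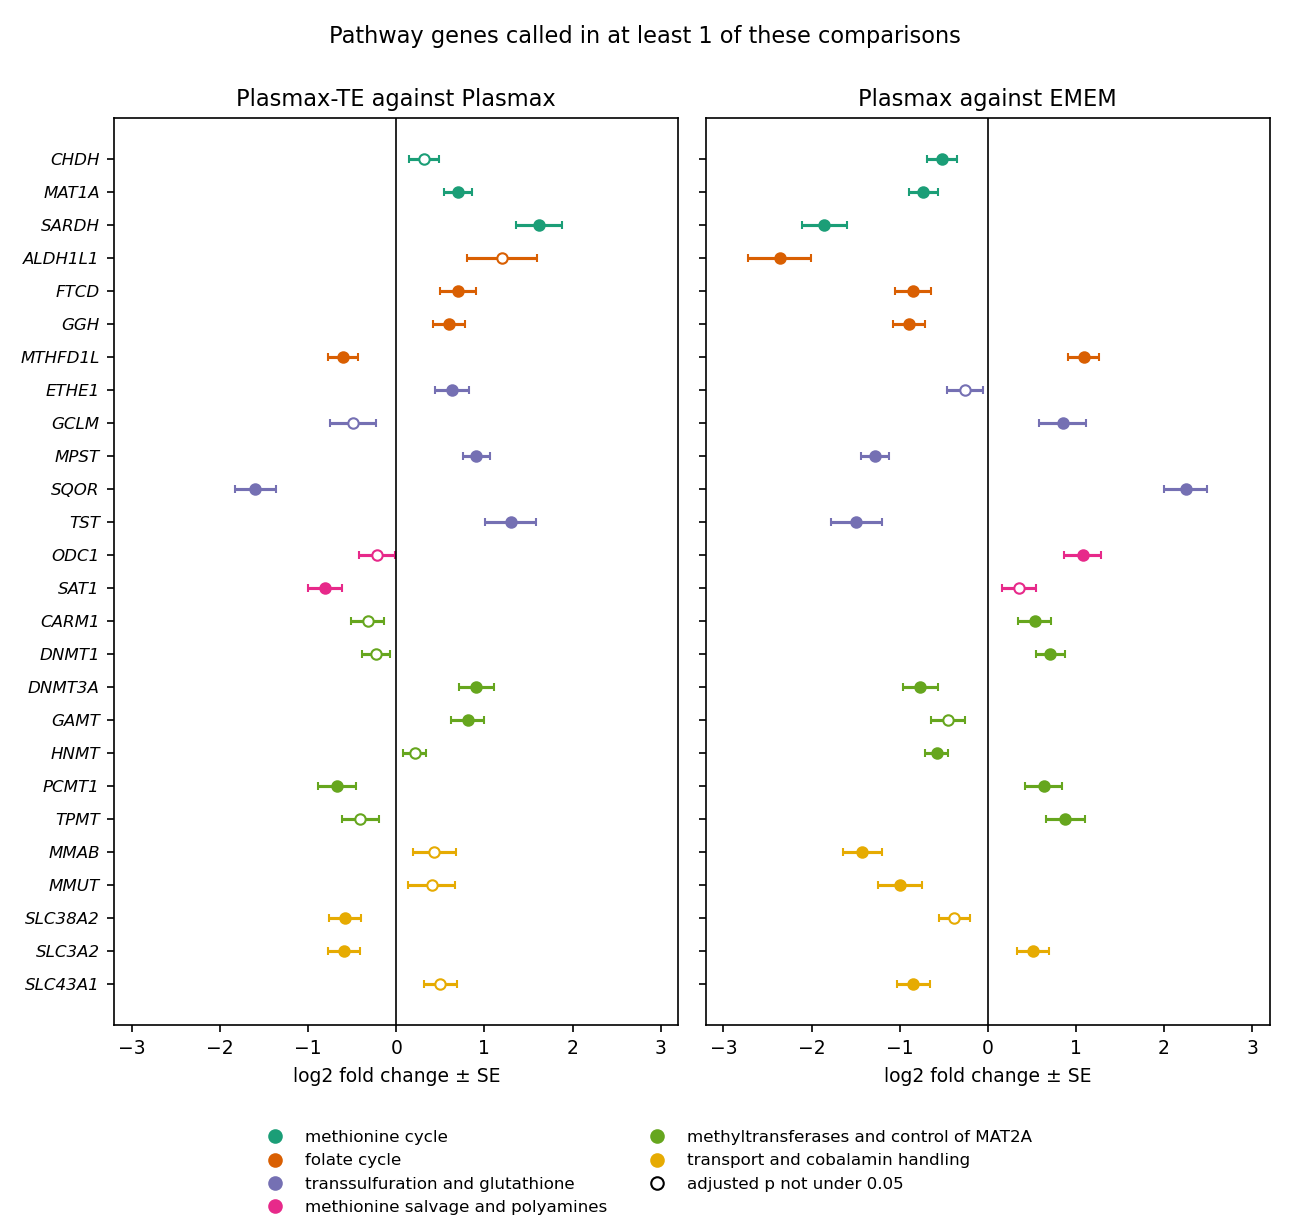
Log2 fold change ± SE (horizontal axes) of 26 related genes in Plasmax-TE against Plasmax (left) and Plasmax against EMEM (right), filled where the edgeR adjusted p was under 0.05 and open where it was not. SQOR lies at -1.60 in the left panel and 2.25 in the right, and SARDH at 1.62 and -1.85; the panels share the Plasmax libraries.

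MAT2A was the 1 gene of the 4 whose log2 CPM varied more over the 12 libraries (SD 1.25) than that of the median gene (0.34), against 0.27 for MAT2B, 0.25 for AHCY and 0.27 for MTR. The 3 genes with the most similar pattern, by the root mean square difference in centred log2 CPM over 12 libraries, were SERPING1 (0.50), HP (0.64) and PLEKHF1 (0.65). SERPING1, the C1 inhibitor of plasma, averaged 58.1 ± 29.3 CPM in Plasmax-TE+Fe, 113 ± 54.4 CPM in Plasmax-TE, 33.2 ± 9.48 CPM in Plasmax and 15.0 ± 2.76 CPM in EMEM. HP, haptoglobin, averaged 51.9 ± 16.1, 96.7 ± 46.2, 44.7 ± 14.6 and 13.3 ± 1.46 CPM in the same order of media. For all 3 genes, as for MAT2A, the mean was highest in Plasmax-TE and lowest in EMEM. Since they were picked by likeness over the same libraries, a shared order of media is built in. In Plasmax-TE+Fe against Plasmax the log2 fold change was 0.80 for SERPING1, 0.22 for HP and 0.58 for PLEKHF1, none of them called. That of MAT2A was 1.83.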

How the data were processed

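Total RNA of HepG2 cells was made into 12 QuantSeq 3′ libraries, per the labels' protocols. Build hg19 (GRCh37) and the tools STAR 2.7.5b, featureCounts 1.6.3, cutadapt 1.16, FastQC 0.72 and limma 3.40.6 are named in the submitters' processing notes, while the annotation was not given in the sources used here. As deposited by the authors, the values are raw counts per gene. Of 10994 entries, 54 repeats of 53 identifiers were dropped. Each gene reached 4.04 CPM in at least 3 libraries, so the table had been filtered for low counts.

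The members and lists were chosen with earlier results of these data known. In R 4.3.3, edgeR 4.0.16 filtered genes with filterByExpr (minimum count 10, minimum total 15; 481 removed), applied TMM and fitted 1 quasi-likelihood model of 4 media to 12 libraries (8 residual degrees of freedom). Tests were two-sided, with Benjamini-Hochberg adjustment over 10459 genes and calls under 0.05. SE is the absolute log2 fold change over the square root of F. An exact permutation test of 3 against 3 libraries cannot go below p = 0.1. Principal components used log2 CPM with a prior count of 2. The fit was tested on simulated counts that held no libraries standing apart. In Plasmax-TE+Fe against Plasmax-TE it recovered 58% of log2 changes of 1 and 94% of log2 changes of 2. False calls were 2.56% of the calls.

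The genes named are the members, their neighbours in the cycle, up to 4 called genes with the lowest p of each list and comparison (up to 2 against EMEM for the trace-element-free media), and the 3 genes most like a member. Of the genes this rule covers, 1 is not reported here, and the lists were counted without it. Correlations between libraries are of log2 CPM less the mean of the medium. Same-numbered libraries of Plasmax-TE and EMEM, which are also of the same run, correlated at 0.110 to 0.171. Libraries of the same run of 4 consecutive library numbers correlated at 0.218 to 0.532 between Plasmax-TE+Fe and Plasmax-TE. Between Plasmax-TE+Fe and EMEM the values were 0.117 to 0.184. The 0.532 is that of the 2 libraries that stood apart. The fit reported had no block for these pairs. Motif sites come from GENCODE v29 on GRCh38, a build other than that of the counts, so they were matched by gene symbol alone. Alternatives tried were DESeq2 1.42.0, RLE factors, library size alone, no filter, a mean of 5 CPM, blocks for replicate number and for runs of 4 library numbers, each library left out, and both libraries that stood apart left out.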

Additional observations from a re-analysis of the deposited data

How the results depend on the processing

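MAT2A kept its direction under every alternative tried except in Plasmax-TE+Fe against Plasmax-TE. There the log2 fold change ran from -0.93 to 0.052 when 1 library was left out, and was -0.92 without both libraries that stood apart. Leaving out 1 library gave MAT2A 1.17 to 2.14 in Plasmax-TE+Fe against Plasmax and 1.75 to 2.74 against EMEM; without both, 1.17 and 1.75. With the run of library numbers as a block, edgeR called 1859 genes in Plasmax-TE against Plasmax (1176 without the block), 152 in Plasmax-TE+Fe against Plasmax-TE (27 without), 372 in Plasmax-TE+Fe against Plasmax (126), 829 in Plasmax-TE against EMEM (503), 1569 in Plasmax-TE+Fe against EMEM (1009) and 2835 among the 4 media (1879). In Plasmax-TE+Fe against Plasmax-TE, DESeq2 called 81 genes, and edgeR 99 without both libraries. Leaving out 1 library gave 477 to 1577 genes in Plasmax-TE against Plasmax, 0 to 229 in Plasmax-TE+Fe against Plasmax-TE, 31 to 170 in Plasmax-TE+Fe against Plasmax, 259 to 678 in Plasmax-TE against EMEM and 606 to 1224 in Plasmax-TE+Fe against EMEM. Of the listed genes, the block called 7 in Plasmax-TE+Fe against Plasmax-TE and leaving out both libraries 2 (0 in the fit reported). In Plasmax-TE+Fe against EMEM the counts were 24 and 26 (15), the 26 including GNMT, which was not among the 82 tested. In Plasmax-TE against EMEM they were 6 and 10 (4). There the block added OAZ2 and DNMT1, named after their values were seen, and also called AHCY. Leaving out 1 library gave 5 to 17 of the listed genes in Plasmax-TE against Plasmax, the 17 including GNMT. It gave 0 to 5 in Plasmax-TE+Fe against Plasmax-TE and 0 to 2 in Plasmax-TE+Fe against Plasmax. Against EMEM it gave 2 to 4 in Plasmax-TE and 8 to 21 in Plasmax-TE+Fe. The cause was not tested. With library size alone, 49.5% of the calls in Plasmax-TE+Fe against EMEM were higher, against 38.1% with TMM factors, and in Plasmax against EMEM 54.8% against 46.4%.

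The replicate block left the 4 listed genes called in Plasmax-TE against EMEM, where same-numbered libraries are of the same run, as they were. In the comparisons of Plasmax-TE+Fe, same-numbered libraries are not of the same run, and their correlations were -0.431 to 0.147. Between the other media, replicate numbers and runs pair the same libraries. Correlations were 0.043 to 0.081 in Plasmax-TE against Plasmax and 0.064 to 0.097 in Plasmax against EMEM. The replicate block removed the AHCY call in Plasmax-TE against Plasmax and left 12 of 15 listed genes called. The MAT2A value in Plasmax-TE+Fe against Plasmax-TE was -0.33 with the replicate block. Of 58 calls of listed genes in all comparisons, 4 were lost with the replicate block and 4 without both libraries. Library size alone lost 3 and DESeq2 lost 1, while RLE factors, no filter, a mean of 5 CPM and the block for library numbers lost 0. In the 12 fits without 1 library, 121 of 696 results for these calls were lost. ETHE1, GGH and PCMT1 in Plasmax-TE against Plasmax each lost their call in 9 of the 12. SLC38A2 in the same comparison and SLC3A2 in Plasmax against EMEM lost theirs in 8. At these depths 1 count is 0.419 to 0.640 CPM.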
